A study of Mus musculus with 384 samples.

Results

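The genes described here are 8 genes of insulin-like growth factor (IGF), insulin, leptin and ghrelin signalling: Igf1, Igf1r, Insr, Igfbp2, Igfbp4, Igfbp5, Lepr and Ghsr. They were taken by symbol from a count table of single cells, as 8 of 26749 genes with at least 1 read in the deposited cells. The cells were tdTomato-positive, propidium iodide-negative cells sorted from 8 adolescent DATIRESCre;Ai9 mice on a C57BL6/J background. In these mice Cre is made from the dopamine transporter locus (Slc6a3) and switches on the tdTomato reporter Ai9, so a labelled cell is one that has expressed the transporter at some time. Mice 1, 4 and 6 were labelled female and the other 5 male, and the ages given ran from P24 to P36. All mice carried the driver and the reporter, there was no treatment, and the dissected tissue was midbrain with the hypothalamus included. Each mouse was captured in its own Fluidigm C1 run, so mouse and run cannot be told apart, and mice 2 and 3 shared a capture day by the labels, as did mice 7 and 8. Cells with at least 500000 reads on genes were used, which were 209 of 384.

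IGF-1 and insulin are related hormones that act on a pair of related receptor tyrosine kinases, IGF1R and INSR, which signal through insulin receptor substrates to PI3-kinase and Akt. IGF-binding proteins are secreted and hold IGFs in the extracellular space, where they can limit or prolong access to the receptor. Leptin, from fat, and ghrelin, from the stomach, report energy stores and hunger, and their receptors on ventral tegmental dopamine neurons are known for effects on food reward.

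The cells carried 500672 to 1544810 reads on genes, with a median of 780466, and a median of 9122 genes with a read. No barcode was shared between cells. Slc6a3 was detected in 205 of the 209 cells and Th, the rate-limiting enzyme of dopamine synthesis, in 198, where detection means at least 10 reads. Markers of other cell types were found in 6 cells, which had at least 100 CPM (reads of a gene scaled to a common total of reads on genes) of at least 2 of 21 glial, microglial or vascular markers. Of these, 3 came from mouse 1 and had astrocyte markers (Slc1a3 and Gja1), 2, in mice 3 and 7, had the oligodendrocyte marker Mag and 1, from mouse 2, had Gja1 and the mural marker Vtn. Microglial Aif1 and C1qa and endothelial Cldn5 and Kdr had no reads in any cell. Th was detected in 3 of these 6 cells and Slc6a3 in 2. The 6 cells touch several of the genes described here, and values without them are given beside the results they move most.

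The cells were divided by 3 genes that mark known kinds of dopamine neuron. Neurod6, a transcription factor of a ventral tegmental subgroup, was detected in 49 cells and not in 160. Aldh1a7, an aldehyde dehydrogenase linked to nigral-type neurons, was detected in 74 and not in 135. Cells were called Th-rich from 1000 CPM of Th, which applied to 181, and Th-poor below it, which applied to 28. Because cells of a mouse share their source, tests used counts summed per mouse and class, from mice with at least 3 cells in both classes (6 mice for Neurod6, 7 for Aldh1a7 and 5 for Th). Shares of cells are descriptions with exact 95% binomial intervals, which cover counting error only.

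Igf1, the ligand, was detected in 121 of the 209 cells (57.9%, interval 50.9 to 64.7%). Over mice its level was 140 ± 119 CPM (SD, n = 8), with the lowest value in mouse 1 (21.2), a median of 111 and the highest in mouse 3 (403). Mouse 3 stood above the next mouse, mouse 7 at 188 CPM, and the share of cells with Igf1 ran from 27.8% in mouse 1 to 91.1% in mouse 3. Among cells with Igf1 the level spanned 14.0 to 2218 CPM. The top value belonged to the cell of mouse 2 with Gja1 and Vtn, which was also the only cell with at least 10 reads of Igf2, and without it mouse 2 had 97.2 CPM of Igf1 in place of 152.

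Igf1r, the receptor for IGF-1, was detected in 155 cells (74.2%) and had a read in 197. Its level was 55.7 ± 26.5 CPM (SD, n = 8), from 25.0 in mouse 6 through a median of 52.2 to 113 in mouse 1. Insr, the insulin receptor, was detected in 61 cells (29.2%, interval 23.1 to 35.9%) and had a read in 130. Its level was 15.7 ± 10.1 CPM, from 0.314 in mouse 1 through a median of 15.9 to 34.4 in mouse 5. Mouse 1 had the highest Igf1r of the 8 mice and the lowest Insr, with 0 of its 18 cells reaching 10 Insr reads. At least 1 of the receptors was detected in 168 cells (80.4%), and both in 48.

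The binding proteins fell into a widely detected member and a pair restricted to few cells. Igfbp5 was detected in 164 cells (78.5%, interval 72.3 to 83.8%) at 135 ± 66.6 CPM (SD, n = 8), from 63.8 in mouse 3 through a median of 123 to 269 in mouse 1. Igfbp4 was detected in 41 cells (19.6%, interval 14.5 to 25.7%) at 43.0 ± 48.8 CPM, from 0 in mouse 4 through a median of 29.0 to 139 in mouse 1. Igfbp2 was detected in 31 cells (14.8%, interval 10.3 to 20.4%) at 12.0 ± 8.63 CPM, from 3.41 in mouse 5 through a median of 10.3 to 29.8 in mouse 2. The 21 cells with most CPM of a gene held 87.1% of the Igfbp2 signal and 83.7% of the Igfbp4 signal, against 46.1% for Igfbp5. In the 3 mouse 1 cells with astrocyte markers Igfbp4 was 321 to 1342 CPM and Igfbp5 37.7 to 2009 CPM, and these cells are in the mouse 1 values above. Without the cells with markers of other types, mouse 1 had 49.0 CPM of Igfbp4 and 155 CPM of Igfbp5 and mouse 2 had 19.1 CPM of Igfbp2, and the means over mice were 32.1 ± 30.5 CPM for Igfbp4, 122 ± 41.5 CPM for Igfbp5 and 11.1 ± 6.22 CPM for Igfbp2 (SD, n = 8). Igfbp2 (chr1:72824503-72852474, plus strand) and Igfbp5 (chr1:72857932-72874884, minus strand) lie 5457 bases apart in GRCm38.

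Lepr, the leptin receptor, was detected in 61 cells (29.2%) but had at least 1 read in 197. Its level was 18.0 ± 7.52 CPM (SD, n = 8), from 9.49 in mouse 8 through a median of 14.8 to 31.4 in mouse 5. Ghsr, the ghrelin receptor, was detected in 41 cells (19.6%) at 12.4 ± 8.26 CPM, from 0.235 in mouse 4 through a median of 15.0 to 25.2 in mouse 6. The top 21 cells held 80.5% of the Ghsr signal and 57.4% of the Lepr signal. Either was detected in 88 cells and both in 14.

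**Figure D1:**
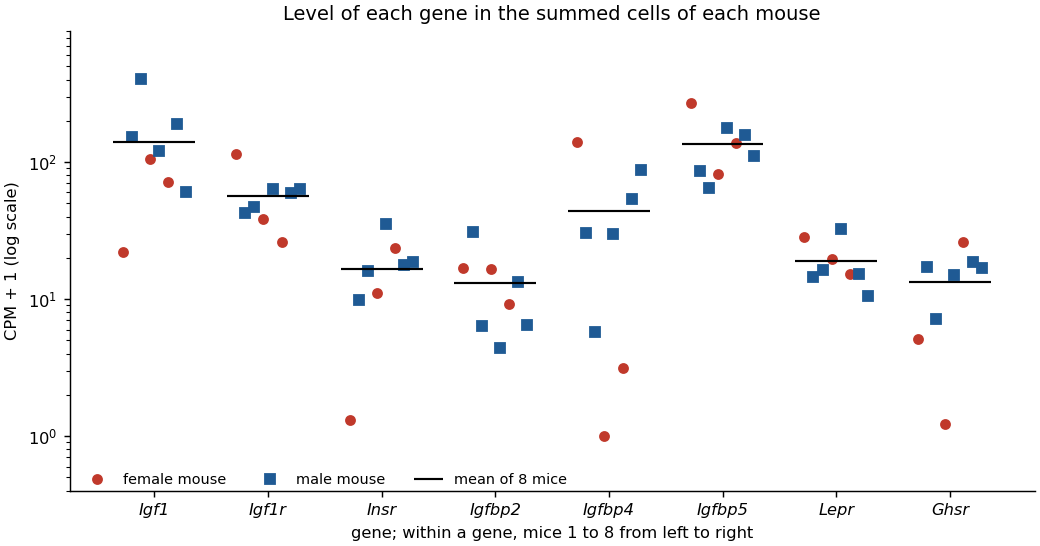
Level of each gene in the summed cells of each mouse, as CPM + 1 on a log axis, with female mice as red circles, male mice as blue squares and a line at the mean of 8 mice. Igf1 spans 21.2 to 403 CPM and Igfbp4 0 to 139 CPM, while Igf1r and Lepr stay within 25.0 to 113 and 9.49 to 31.4 CPM.

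Divided by exon length (GENCODE vM21 on GRCm38), so that genes can be compared, the mean levels over mice were 22.4 CPM per kb for Igfbp5, 14.1 for Igf1, 9.74 for Igfbp4, 6.52 for Igfbp2, 3.32 for Igf1r, 2.80 for Ghsr, 2.56 for Lepr and 1.14 for Insr. Of the 7 pairs of neighbours in this order, Lepr and Insr was the only pair with a p under 0.05, with Lepr higher in 8 of 8 mice (two-sided exact sign-flip permutation test on log2 values, p = 0.00781, the smallest that 8 mice allow). For the other 6 pairs the p from the same exact test was 0.109 to 0.680, which does not show that these neighbours were equal. The pairs were set by the order of the same values, not in advance. The p-values are not adjusted for the 7 comparisons. Without the 6 cells with markers of other types the means kept the same order, from 20.3 CPM per kb for Igfbp5 to 1.14 for Insr. The Igf1 and Insr genes overlap other annotated genes (Igf1os for Igf1, Gm16180 and Vmn2r-ps88 for Insr), and the library kit does not mark strand, so reads of antisense partners cannot be told apart there.

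A cell had a median of 3 of the 8 genes detected, with a range of 0 to 7, and 5 cells had none. Ligand and receptor occurred together in many cells: Igf1 and Igf1r were both detected in 91 cells (43.5%), Igf1r alone in 64, Igf1 alone in 30 and neither in 24. Igf1r was detected in 75.2% of cells with Igf1 and 72.7% of cells without it. At least 1 of the 3 binding proteins was detected in 172 cells (82.3%). Igfbp2 and Igfbp4 shared 16 cells, which was 51.6% of the cells with Igfbp2 and 39.0% of those with Igfbp4.

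Within Th-rich cells, the 8 genes divided the 4 combinations of Neurod6 and Aldh1a7 in different ways. Igf1 was detected in 87.5% of the 56 Neurod6- Aldh1a7+ cells and 72.2% of the 18 Neurod6+ Aldh1a7+ cells, against 50.0% of the 76 cells with neither gene and 51.6% of the 31 Neurod6+ Aldh1a7- cells. The classes drew on the mice unequally, since mouse 3, which had the highest share of cells with Igf1, gave 24 of the 56 Neurod6- Aldh1a7+ cells, all 24 with Igf1, and 12 of the 76 cells with neither gene, 11 of them with Igf1. Without mouse 3 the Igf1 shares were 78.1%, 64.3%, 42.2% and 51.9% in the same order. Igfbp4 followed the other gene, at 61.3% and 66.7% of Neurod6+ Aldh1a7- and Neurod6+ Aldh1a7+ cells against 3.95% and 7.14% of the Neurod6- classes. Igfbp2 was at its lowest in cells with neither gene (1.32%) and at 19.6%, 29.0% and 50.0% in cells with Aldh1a7 alone, Neurod6 alone and both, the last of which was 25.0% without mouse 2.

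Among the 2 feeding-hormone receptors, Ghsr was found in 30.3% of Th-rich cells with neither gene and 21.4% of those with Aldh1a7 alone, against 6.45% and 5.56% of Neurod6+ Aldh1a7- and Neurod6+ Aldh1a7+ cells. Lepr was found in 31.6% and 32.1% against 12.9% and 22.2%. With 1 mouse left out in turn, Ghsr ran from 3.70 to 8.33% of Neurod6+ Aldh1a7- cells and from 0 to 8.33% of Neurod6+ Aldh1a7+ cells. Lepr then ran from 8.0 to 16.7% and from 14.3 to 28.6% of the same classes. Over these 4 classes Igf1r ranged from 73.7 to 90.3%, Igfbp5 from 69.7 to 89.3% and Insr from 22.2 to 37.5%.

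**Figure D2:**
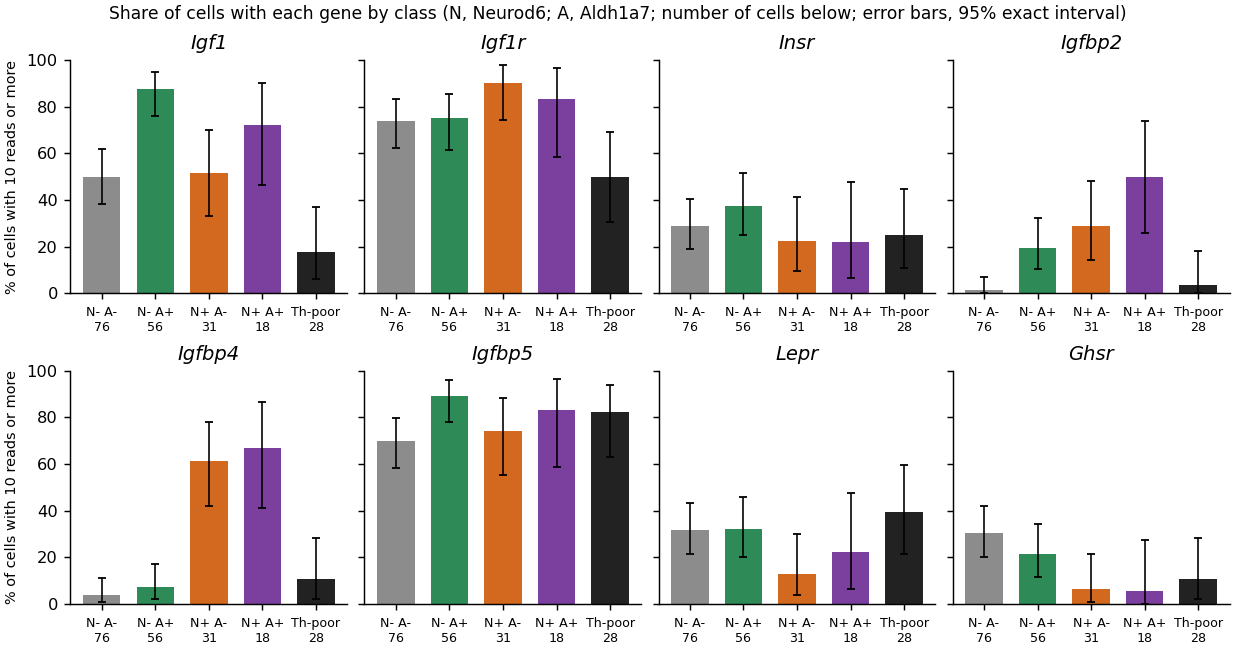
Percent of cells with at least 10 reads of each gene in 5 classes (N, Neurod6; A, Aldh1a7; the number of cells under each bar), with 95% exact binomial intervals as error bars. Igfbp4 stands at 61.3 and 66.7% in the Neurod6+ classes and at 3.95, 7.14 and 10.7% in the other 3, and Igf1 at 17.9% in Th-poor cells. The 10.7% is the Th-poor class, where the 3 cells with Igfbp4 were the mouse 1 cells with astrocyte markers. Without cells with markers of other types it is 0%.

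The level in each cell is shown beside these shares.

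**Figure D3:**
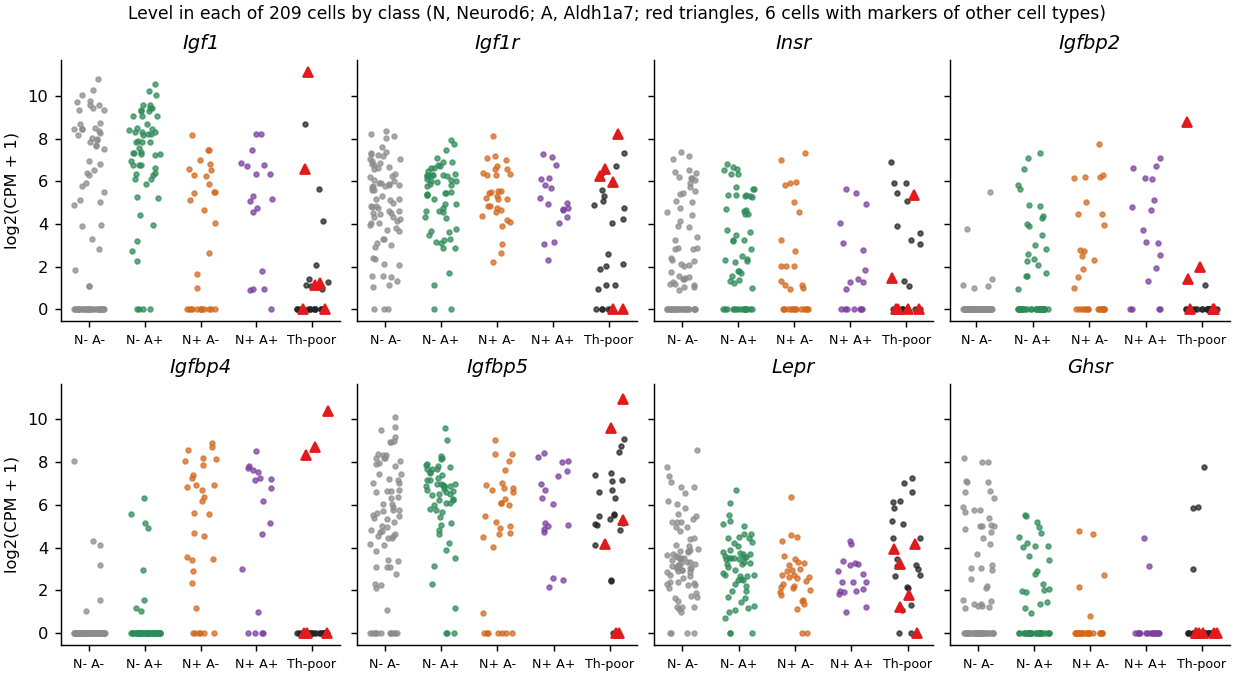
Level of each gene in each of 209 cells, as log2(CPM + 1), in the same 5 classes, with 1 point per cell and red triangles for the 6 cells with markers of other cell types. All 6 triangles lie in the Th-poor class, where they include the highest Igf1, Igfbp2, Igfbp4 and Igfbp5 values of all cells.

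Neurod6+ cells were compared with Neurod6- cells of the same 6 mice. In these mice Igfbp4 was detected in 30 of 47 Neurod6+ cells (63.8%) and 10 of 133 Neurod6- cells (7.52%), or 7 of 127 (5.51%) without markers of other types, and its share was higher in Neurod6+ cells in 6 of 6 mice. Igfbp2 was detected in 17 of 47 (36.2%) and 10 of 133 (7.52%), also with a higher share in 6 of 6 mice. Ghsr went the other way, with 3 of 47 (6.38%) and 32 of 133 (24.1%). None of the 8 genes passed the edgeR test across all genes, in which 0.0476% of 12604 genes were called.

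Igfbp4 is taken first because its share differed most. By mouse its level in Neurod6+ against Neurod6- cells was 147 against 138 CPM in mouse 1, 92.5 against 1.04 in mouse 2, 15.4 against 2.50 in mouse 3, 166 against 1.69 in mouse 5, 122 against 1.86 in mouse 7 and 167 against 5.66 in mouse 8. Neurod6+ cells were higher in 6 of 6 mice, but the groups overlapped, because the Neurod6- cells of mouse 1 were as high as its Neurod6+ cells. Those Neurod6- cells include the 3 cells with astrocyte markers, and without them mouse 1 had 22.8 CPM in Neurod6- cells. The mean over mice was 119 ± 58.0 against 25.1 ± 55.2 CPM (SD, n = 6), and 119 against 5.97 ± 8.41 CPM without the cells with markers of other types.

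For Igfbp4 the edgeR log2 fold change was 2.34 ± 1.11 (SE) with an adjusted p of 0.812. Without the 6 cells it was 4.39 ± 0.80 with an edgeR adjusted p of 0.0580, and without mouse 1 it was 5.52 ± 0.68 with an edgeR adjusted p of 0.0110. With the mouse as a block it was 4.75 ± 1.02 with an edgeR adjusted p of 0.225. The call thus changed without mouse 1, and the size also without the 6 cells. In the analysis code supplied with the study, Igfbp4 stands beside Neurod6 among the markers plotted for these cells, so the pattern is no independent evidence.

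Igfbp2 in Neurod6+ against Neurod6- cells was 87.4 against 0.287 CPM in mouse 1, 36.3 against 27.0 in mouse 2, 15.6 against 3.20 in mouse 3, 14.4 against 1.24 in mouse 5, 24.0 against 3.82 in mouse 7 and 4.36 against 6.71 in mouse 8. It was higher in 5 of 6 mice, and mouse 2 held its closest upward pair, with 11.1 CPM in Neurod6- cells once the Gja1 and Vtn cell was left out. In edgeR its log2 fold change was 2.14 ± 0.94 with an adjusted p of 0.769. Cells with all 3 binding proteins numbered 14, of which 13 were Neurod6+.

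Ghsr was lower in level in Neurod6+ cells in 6 of 6 mice, at 0 to 5.13 CPM against 4.97 to 31.2 CPM. The ranges overlapped between 4.97 and 5.13 CPM. By share of cells Ghsr was lower in 5 of 6 mice and higher in mouse 3 (2 of 8 against 7 of 37 cells). In mice 1, 5 and 7 no read of Ghsr was counted in Neurod6+ cells, which numbered 3, 6 and 10. In the edgeR test the log2 fold change was -3.49 ± 1.15 with an adjusted p of 0.542. Lepr was lower in 5 of 6 mice, at 7.60 ± 3.98 against 21.5 ± 10.3 CPM (SD, n = 6), with mouse 7 near equal at 14.9 and 14.0 CPM. The share of cells with Lepr was lower in Neurod6+ cells in 4 of 6 mice and higher in mice 3 and 7, and with detection from 1 read the mean difference in share turned to 2.61 points higher in Neurod6+ cells. Its edgeR log2 fold change was -1.42 ± 0.51 with an adjusted p of 0.630.

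Igf1 was lower in the Neurod6+ cells of 5 of 6 mice, at 64.3 ± 41.8 against 195 ± 154 CPM (SD, n = 6), and higher in mouse 1 at 70.0 against 10.4 CPM. Without the cells with markers of other types the Neurod6- value was 5.10 CPM in mouse 1 and 122 in place of 200 CPM in mouse 2. Its share of cells was 28 of 47 (59.6%) and 80 of 133 (60.2%). The test in edgeR gave a log2 fold change of -1.58 ± 0.73 with an adjusted p of 0.804. Igf1r, Igfbp5 and Insr had edgeR log2 fold changes of -0.21 ± 0.33, -0.65 ± 0.42 and -0.31 ± 0.90 with adjusted p-values of 0.998, 0.940 and 0.998.

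At an unadjusted edgeR p under 0.05 there were 4 of the 8 genes (Igfbp2, Ghsr, Lepr and Igf1), beside 6.19% of all genes tested, and DESeq2 called none of the 8. The median log2 fold change was -0.48 for the 8 genes and 0.00 for all genes. The depth of the classes was similar, with a median of 810098 reads in Neurod6+ cells and 757692 in Neurod6- cells. All 28 Th-poor cells, with the 6 cells with markers of other types among them, were Neurod6-. The glutamate neuron markers, 3 vesicular transporters, had a median sum of 152 CPM in the 49 Neurod6+ cells (0 to 1357) and 7.13 CPM in the 160 Neurod6- cells (0 to 1889), and the 6 astrocyte markers 674 (42.3 to 1948) and 199 CPM (0 to 4237). For the 6 oligodendrocyte markers the median sum was 41.0 (0 to 2922) and 14.6 CPM (0 to 120158). Of the astrocyte markers, Slc1a2 was detected in 183 of the 209 cells and each of the other 5 in at most 5. The part of these markers in the differences was not tested. In Th-rich cells alone the edgeR log2 fold changes of Igfbp4, Igfbp2, Ghsr and Igf1 were 3.96, 2.64, -3.53 and -1.57, none past the threshold.

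**Figure D4:**
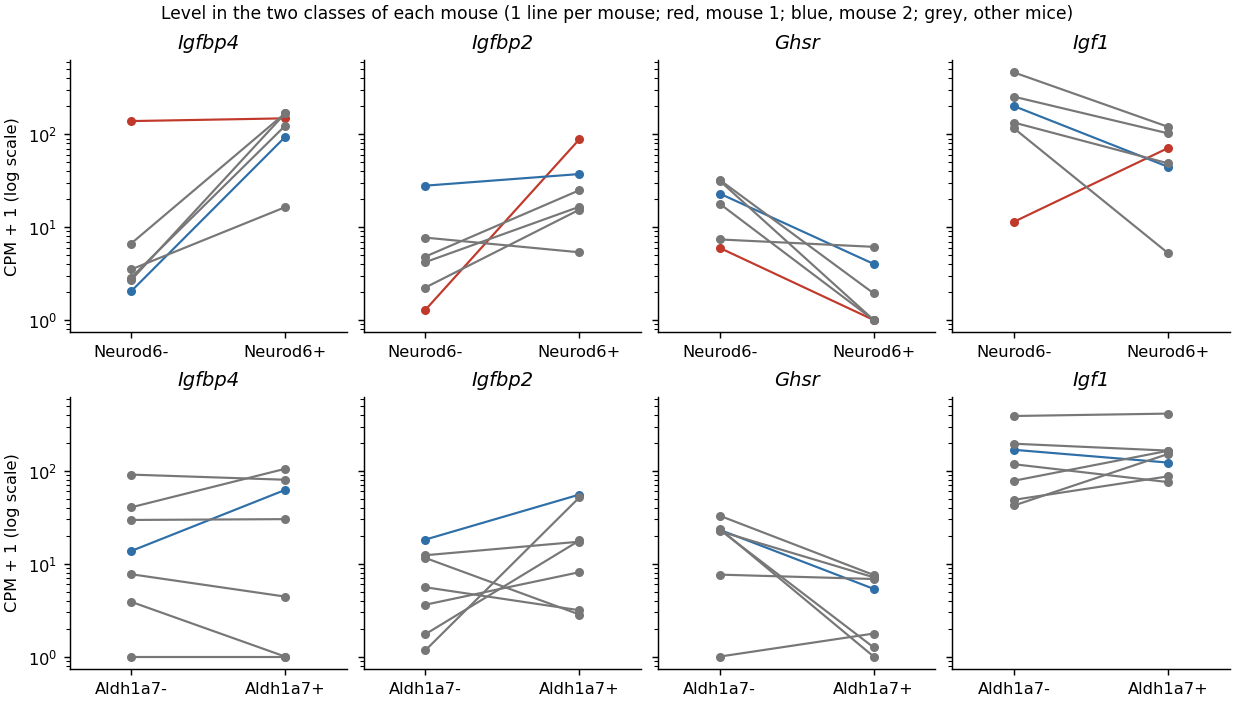
Level of Igfbp4, Igfbp2, Ghsr and Igf1, as CPM + 1 on a log axis, in the Neurod6- and Neurod6+ cells (upper row) and the Aldh1a7- and Aldh1a7+ cells (lower row) of each mouse, with 1 line per mouse, mouse 1 in red and mouse 2 in blue. For Igfbp4, the grey and blue lines rise from 1.04 to 5.66 CPM at their lower ends while the red line runs from 138 to 147 CPM.

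The start of Igfbp4 is shown because Igfbp4 was the member most alike to Neurod6 across cells, and Neurod6 is a bHLH factor, a class that binds E-boxes (CANNTG). The 250 bases before the RefSeq start of Igfbp4 (chr11:99040994-99041243, plus strand, GRCm38.p6) and those before the first start of Igfbp2 (chr1:72824230-72824479, plus strand) are printed with the E-box match in capitals.
Igfbp4: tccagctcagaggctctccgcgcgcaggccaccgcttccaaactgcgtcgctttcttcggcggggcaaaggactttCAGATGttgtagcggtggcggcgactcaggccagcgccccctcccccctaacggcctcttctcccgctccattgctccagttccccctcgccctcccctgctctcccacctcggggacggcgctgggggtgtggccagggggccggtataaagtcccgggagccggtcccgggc
Igfbp2: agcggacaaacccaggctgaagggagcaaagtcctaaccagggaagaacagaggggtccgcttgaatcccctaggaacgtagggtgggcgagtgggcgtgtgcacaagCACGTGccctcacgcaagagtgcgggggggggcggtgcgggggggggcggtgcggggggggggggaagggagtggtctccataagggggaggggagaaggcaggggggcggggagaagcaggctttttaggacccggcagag
The match in Igfbp4 is CAGATG, 174 bases before the start, and the match in Igfbp2 is CACGTG, 142 bases before the start. CANNTG reads alike on both strands, and 66.2% of 32841 RefSeq promoters of this length hold at least 1, while 14.4% hold CAGATG or its reverse complement CATCTG. A match describes the letters and says nothing on binding. Of the 8 genes, 7 had a promoter in the RefSeq table, and of these only Igf1r held no match. Matches were also present in Igf1 (CAGCTG), Igfbp5 (CAACTG), Ghsr (CAAATG) and Lepr (3 before its first start). These 4 genes had negative log2 fold changes by Neurod6 status, so a match was not particular to genes higher in Neurod6+ cells.

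Aldh1a7+ cells were compared with Aldh1a7- cells in 7 mice. In these mice Igf1 was detected in 62 of 74 Aldh1a7+ cells (83.8%) and 54 of 117 Aldh1a7- cells (46.2%), Igfbp2 in 20 of 74 (27.0%) and 9 of 117 (7.69%) and Igfbp5 in 65 of 74 (87.8%) and 85 of 117 (72.6%). Ghsr was lower in level in Aldh1a7+ cells in 6 of 7 mice. Its share of cells was 13 of 74 (17.6%) and 26 of 117 (22.2%), higher in 3 mice and lower in 3. None of the 8 passed the edgeR test, in which 0.399% of 12780 genes were called. The median depth was 791394 reads in Aldh1a7+ cells and 758048 in Aldh1a7- cells. A median of 9778 genes had a read in Aldh1a7+ cells and 8662 in Aldh1a7- cells, and the part of this in the shares was not tested.

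The 2 classes also differed in what else they held. All 28 Th-poor cells and the 6 cells with markers of other types among them were Aldh1a7-. The glutamate neuron markers had a median sum of 3.37 CPM in Aldh1a7+ cells (0 to 1286) and 156 CPM in Aldh1a7- cells (0 to 1889), the GABA neuron markers 1.90 (0 to 1789) and 3.63 CPM (0 to 5392), and the astrocyte markers 371 (0 to 1798) and 219 CPM (0 to 4237). Slc6a3 was higher in Aldh1a7+ cells, with an edgeR log2 fold change of 1.27 ± 0.24 and an adjusted p of 0.0334. The part of these in the differences below was not tested. In Th-rich cells alone the edgeR log2 fold changes of Igf1, Igfbp2 and Ghsr were 0.10, 2.06 and -2.41, none past the threshold.

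The Igf1 share was higher in Aldh1a7+ cells in 6 of 7 mice and equal in mouse 8 (2 of 6 against 5 of 15 cells). In mouse 3 all 28 Aldh1a7+ cells had Igf1, beside 13 of 17 Aldh1a7- cells. The level moved less, at 168 ± 114 against 148 ± 121 CPM (SD, n = 7), with 4 of 7 mice higher in Aldh1a7+ cells. Without the Gja1 and Vtn cell, the Aldh1a7- cells of mouse 2 had 84.1 in place of 167 CPM, below the 122 CPM of its Aldh1a7+ cells, and 5 of 7 mice were higher. The edgeR log2 fold change was 0.30 ± 0.49 with an adjusted p of 0.881.

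Igfbp2 was higher in Aldh1a7+ cells in 5 of 7 mice, from 1.84 to 54.5 CPM against 0.169 to 17.2 CPM, and the ranges overlapped. The 17.2 CPM came from mouse 2 and was 0.216 CPM without the Gja1 and Vtn cell, and the mean over mice in Aldh1a7- cells was 6.74 CPM with the cells of other markers and 4.43 CPM without them. In edgeR its log2 fold change was 1.81 ± 0.90 with an adjusted p of 0.477. Where the status was set at the first read of Aldh1a7 instead of 10, Igfbp2 was detected in 30 of 119 cells with a read and in 1 of 90 without. By mouse it was then 69.3 against 0.304, 50.1 against 0.0845, 6.62 against 0, 50.8 against 0.169, 4.64 against 1.09, 18.7 against 0.595, 24.0 against 0 and 8.79 against 0.138 CPM in mice 1 to 8. It was higher in 8 of 8 mice, and the 2 groups of mice did not overlap, with 4.64 as the lowest value with Aldh1a7 and 1.09 as the highest without. Without the Gja1 and Vtn cell the value of mouse 2 with Aldh1a7 was 32.6 CPM. Neurod6 status was mixed in here, since 9 of the 11 cells with Igfbp2 and under 10 reads of Aldh1a7 were Neurod6+. Mouse 1 had 0 cells with 10 reads of Aldh1a7, and its 2 cells with Igfbp2 were Neurod6+. The part of Neurod6 status at this setting was not tested. The edgeR log2 fold change at that setting was 6.62 ± 0.90 with an adjusted p of 0.00104, a size that rests on groups near 0 reads. It was the only one of 21 alternative settings in which Igfbp2 passed, and over them the log2 fold change ran from 0.22, with cells from 750000 reads and an edgeR adjusted p of 0.989, to 6.66.

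In the same code Igfbp2 and Aldh1a7 stand in 1 marker set taken from earlier work. The genes most alike to Igfbp2 over the cells, given further on, include the related Aldh1a1.

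Ghsr in Aldh1a7+ against Aldh1a7- cells was 3.42 ± 2.96 against 18.1 ± 10.9 CPM (SD, n = 7), with mouse 4 as the exception at 0.77 against 0. In the edgeR test the log2 fold change was -2.21 ± 0.99 with an adjusted p of 0.414. Igfbp5 was higher in 6 of 7 mice, at 144 ± 66.2 against 101 ± 52.9 CPM, with an edgeR log2 fold change of 0.69 ± 0.40 and an adjusted p of 0.575. Igf1r, Igfbp4, Insr and Lepr had edgeR log2 fold changes of 0.50 ± 0.52, 0.74 ± 1.14, -0.42 ± 0.53 and -0.66 ± 0.47 with adjusted p-values of 0.793, 0.873, 0.842 and 0.666. At an unadjusted edgeR p under 0.05 there was 1 of the 8 genes (Ghsr), beside 11.0% of all genes, and DESeq2 called none. The median log2 fold change was 0.40 for the 8 genes and 0.00 for all genes.

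Th-poor cells were compared with Th-rich cells in 5 mice, and here the 6 cells with markers of other types weigh most, since all were Th-poor. The test called 0.415% of 11321 genes and none of the 8. Over all 28 Th-poor cells, of all mice, Igf1 was detected in 17.9% and Igf1r in 50.0%, beside Th-rich classes at 50.0 to 87.5% and 73.7 to 90.3%. The 22 Th-poor cells without markers of other types had a median of 614 CPM over the glutamate neuron markers, against 14.8 CPM in Th-rich cells, and Th-poor cells had a median depth of 705153 against 783961 reads. What part these have in the values below was not tested.

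Igf1 in Th-rich against Th-poor cells was 24.9 against 14.6 CPM in mouse 1, 109 against 443 in mouse 2, 163 against 0.322 in mouse 4, 131 against 0.336 in mouse 5 and 87.6 against 20.1 in mouse 6. It was higher in Th-rich cells in 4 of 5 mice, and the value of mouse 2 came from the Gja1 and Vtn cell, without which its Th-poor cells had 0.990 CPM. The test in edgeR gave a log2 fold change of -0.00 ± 1.33 with an adjusted p of 1.00, and without the 6 cells it was 4.44 ± 1.16 with an edgeR adjusted p of 0.135 and 5 of 5 mice in the same direction.

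Igfbp2 followed the same course, at 24.6 against 0.652, 21.3 against 86.7, 24.5 against 0.322, 3.77 against 0 and 11.1 against 0 CPM in mice 1, 2, 4, 5 and 6. Without the 6 cells, Igfbp2 in Th-poor cells was 0 CPM in 4 mice and 0.322 CPM in mouse 4. The edgeR log2 fold change went from -0.15 ± 1.63 with an adjusted p of 0.992 to 7.79 ± 1.30 with an adjusted p of 0.0177, a size set by groups near 0. Igfbp4 had no read in the 22 Th-poor cells that were left, of which mice 1, 2, 4, 5 and 6 held 4 each, against 0 to 65.7 CPM in Th-rich cells of these mice.

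Igf1r was higher in Th-rich cells in 5 of 5 mice, at 125 against 91.5, 45.1 against 16.4, 53.0 against 10.3, 68.3 against 8.39 and 30.7 against 8.73 CPM in mice 1, 2, 4, 5 and 6. The groups overlapped only through mouse 1, whose Th-poor cells had 46.9 CPM without those with astrocyte markers. The edgeR log2 fold change was 1.19 ± 0.75 with an adjusted p of 0.695, and 1.73 ± 0.64 with an edgeR adjusted p of 0.378 without the 6 cells. Lepr lay the other way in 4 of 5 mice, at 18.2 ± 6.45 against 37.3 ± 33.4 CPM (SD, n = 5). Its Th-poor value was 95.0 CPM in mouse 5 and 9.00 to 31.3 CPM in the other mice. For Lepr the edgeR log2 fold change was -1.07 ± 0.67 with an adjusted p of 0.695. Igfbp5, Insr, Ghsr and Igfbp4 had edgeR log2 fold changes of -0.31 ± 0.52, -0.32 ± 1.24, 0.14 ± 1.66 and -1.09 ± 2.01 with adjusted p-values of 0.917, 0.973, 0.992 and 0.932. Without the 6 cells the fold changes of Igfbp5 and Ghsr changed sign, to 0.42 and -0.058. At an unadjusted edgeR p under 0.05 there was 0 of the 8 genes, beside 9.35% of all genes, and DESeq2 called none. The median log2 fold change was -0.23 for the 8 genes and -0.10 for all genes.

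**Figure D5:**
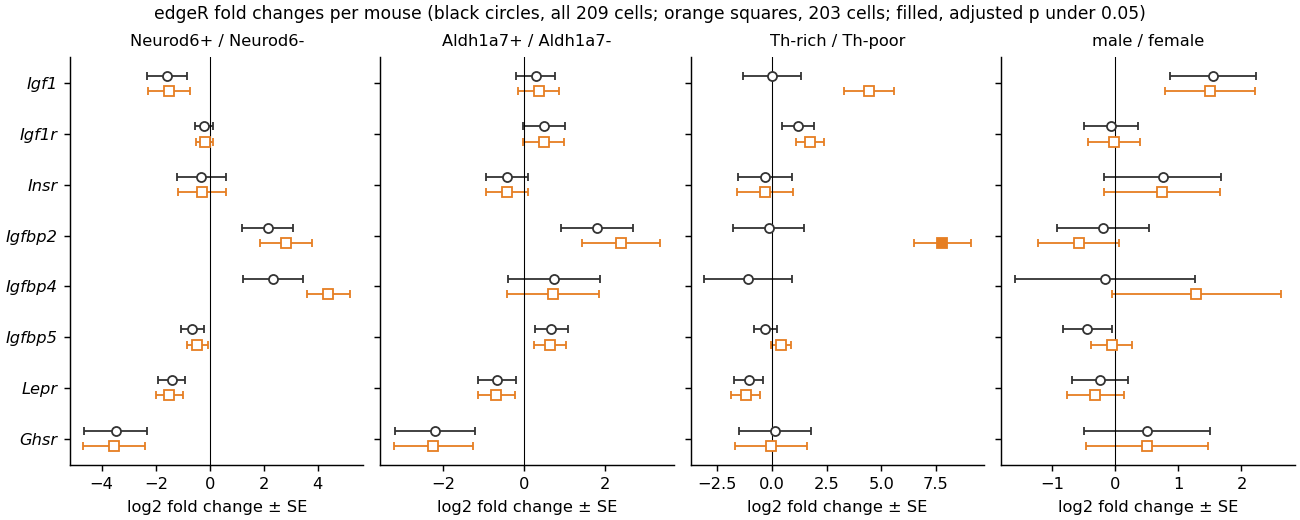
edgeR log2 fold changes with SE of the 8 genes in 4 comparisons, from all 209 cells (black circles) and from the 203 cells without markers of other cell types (orange squares), with filled symbols for an adjusted p under 0.05. Igfbp2 between Th-rich and Th-poor cells, without those 6 cells, is the only filled symbol, at 7.79.

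Between the sexes, compared in 5 male and 3 female mice by the sample labels, the test called 0.0322% of 15528 genes and none of the 8. Igf1 was 184 ± 131 CPM in male mice (SD, n = 5) and 65.0 ± 41.6 CPM in female mice (SD, n = 3), with overlapping ranges of 59.2 to 403 and 21.2 to 104 CPM. The edgeR log2 fold change was 1.55 ± 0.68 with an adjusted p of 0.603. The other 7 had edgeR log2 fold changes between -0.44 and 0.75 and adjusted p-values of 0.826 to 0.990. At an unadjusted edgeR p under 0.05 there was 1 of the 8 genes (Igf1), beside 8.12% of all genes, and DESeq2 called none. The median log2 fold change was -0.12 for the 8 genes and 0.02 for all genes. The sexes were counted differently in the general description of the series, so the sex of a mouse is in doubt and all values by sex depend on the labels. Without the 6 cells the fold change of Igfbp4 turned from -0.17 to 1.29. Sex was not balanced over age, lane or capture machine. Within sequencing lane 2, the edgeR log2 fold change of Igf1 was -0.0042.

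Other genes of the same pathways were taken as 4 lists. Of 16 other ligands, binding proteins and proteases, Igf2r, the clearance receptor for IGF-2, was detected in 197 cells, Pappa, a protease that cuts binding proteins, in 79, Igfbp3 in 25 and Igf2 in 1, while Ins1, Ins2, Insrr, Igfbp1 and Igfals had no read. Of 36 genes of insulin and IGF receptor signalling, 17 were detected in at least 50% of cells. Of 24 other feeding-hormone receptors, Adipor1 was detected in 146 cells, Ghr in 98, Mchr1 in 76, Prlr in 70, Npy1r in 66 and Mc3r in 54, and Glp1r, Gcgr and Hcrtr1 in 0.

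No gene of the 4 lists passed the edgeR test for Neurod6 or sex. Irs4, an insulin receptor substrate found in few tissues and in hypothalamus, was lower in Th-rich cells at 43.8 against 164, 25.4 against 187, 113 against 239, 40.2 against 655 and 32.4 against 638 CPM in mice 1, 2, 4, 5 and 6. It was lower in 5 of 5 mice and the groups did not overlap, with an edgeR log2 fold change of -2.90 ± 0.56 and an adjusted p of 0.0462. Plcb4, a phospholipase downstream of G protein-coupled receptors, rose in Aldh1a7+ cells (edgeR log2 fold change 0.94 ± 0.18, adjusted p 0.0300) and in Th-rich cells (2.04 ± 0.34, adjusted p 0.0324). These calls held in few alternatives, 6 of 17 for Irs4, 9 of 21 for Plcb4 by Aldh1a7 status and 5 of 17 for Plcb4 by Th status, and with the mouse as a block the edgeR adjusted p of Irs4 was 0.140. The median log2 fold change of the 36 signalling genes between Th-rich and Th-poor cells was -0.31, beside -0.10 for all genes, with 1 of 35 tested called lower and 0 called higher, beside 0.415% of all genes called in that test.

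Across the 209 cells, the genes most alike to each of the 8 were ranked by Spearman's rho of log2(CPM + 1) among 12104 genes, as a description only, since cells of a mouse share its capture run and cells differ in depth. Igfbp4 was most like Neurod6 (rho 0.666), Grp, a neuropeptide of an overlapping subgroup (0.547), and Lpl, a lipoprotein lipase (0.511). Igfbp2 was most like Aldh1a1, a retinal dehydrogenase (0.530), Anxa1 (0.493) and Sparc (0.474). Igf1 was most like Rbms3 (0.615), Snap25, a synaptic fusion protein (0.590), and Ndnf (0.573).

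The remaining genes had weaker leaders. Igfbp5 was most like Pcdh17 (0.470), Lmo3 (0.345) and Celf4 (0.337), and Ghsr like Sparcl1 (0.455), Lrtm1 (0.398) and Rgs8 (0.381). Insr was most like Cab39 (0.406), Malat1 (0.369) and Basp1 (0.345), Lepr like LOC102637068 (0.318), Plekha7 (0.313) and Gm10030 (0.312), and Igf1r like Cdkn1b (0.282), Crebl2 (0.254) and Pdzrn4 (0.251). Under no member did another of the 8 genes stand among the first 3.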

How the data were processed

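Each deposited sample is 1 cell, and the replicate is the mouse. To obtain counts, the authors used Trimmomatic 0.3.2 for trimming, TopHat2 2.1.1 for alignment to GRCm38.3 (mm10) and featureCounts 1.5.0-p3 with RefSeq genes. Multi-gene and chimeric reads were excluded, and counts were deposited unnormalized. Wells with doublets had been excluded by the authors on inspection, and no doublet caller was run here. Entries for spike-ins and transgenes, 0.00457% of reads, were set aside. A table of alignment metrics without cell names was not used. An item among the markers of other cell types is not reported here.

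CPM is the reads of a gene over all reads on genes in the same cells. Sums per mouse and class were tested with edgeR 4.0.16 (TMM, filterByExpr, quasi-likelihood) in R 4.3.3, with Benjamini-Hochberg adjustment over all genes tested, a threshold of 0.05 and no block. DESeq2 1.42.0, limma 3.58.1 and other settings were alternatives. Both classes come from the same mouse, which pairs the sums, and the deviations of a mouse's classes from the class means correlated at 0.0308 to 0.275. With the mouse as a block, the counts of called genes were 0, 28 and 10 for Neurod6, Aldh1a7 and Th, against 6, 51 and 47. Python 3.11.15 with numpy 2.4.6, pandas 2.3.3 and scipy 1.17.1 did the rest, and the tests were tried on simulated data.

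The 8 genes and all lists were chosen with earlier results of these data known. Named genes are the 8, list genes past the threshold, and for each of the 8 the 3 genes most alike among those with 10 reads in 10 cells. Other genes of the lists that are named for how many cells they were detected in, and single marker genes, fall outside this rule and were chosen after their values were seen. Sequences are from RefSeq, GRCm38.p6. The p-values measure the spread between mice of single C1 runs.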

Additional observations from a re-analysis of the deposited data

Results flagged for a closer look

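Across 56 groups of mice tested for a single mouse standing apart (Dixon's criterion, which chance meets in about 1 of 20 groups), 13 did so. In mouse 1 these were Igfbp4 in Neurod6- cells (138 CPM) and in Th-poor cells (270 CPM) and Igf1r in the same classes (128 and 91.5 CPM); 3 of these cells had astrocyte markers. In mouse 2 they were Igf1 (443 CPM), Igfbp2 (86.7 CPM) and Ghsr (46.0 CPM) in Th-poor cells and Igfbp2 in Neurod6- cells (27.0 CPM), beside 1 cell with Gja1 and Vtn that had 0 CPM of Ghsr. In mouse 5 Lepr stood apart among males (31.4 CPM), in Aldh1a7- cells (52.8 CPM) and in Th-poor cells (95.0 CPM), and Insr in Neurod6+ cells (42.7 CPM). In mouse 3 Igf1 stood apart in Aldh1a7+ cells (412 CPM). Without the cells with markers of other types, mouse 1 had 22.8 CPM of Igfbp4 in Neurod6- cells and 0 in Th-poor cells, and 122 and 46.9 CPM of Igf1r. Without them mouse 2 had 0.990 CPM of Igf1, 0 of Igfbp2 and 57.4 of Ghsr in Th-poor cells and 11.1 CPM of Igfbp2 in Neurod6- cells, so the values of Igfbp4 in mouse 1 and of Igf1 and Igfbp2 in mouse 2 came mostly from those cells, and those of Ghsr in mouse 2 and of Igf1r in the Neurod6- cells of mouse 1 did not. The groups of mice 3 and 5 named above held none of the 6 cells, and the part of the run was not tested.

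Cells under the depth limit, which entered no comparison, also held reads of the genes. Of 175 such cells, 10 reads were reached for Igf1r in 42, for Igf1 in 37, for Igfbp5 in 32, for Lepr in 27, for Insr in 15, for Igfbp4 in 6, for Ghsr in 4 and for Igfbp2 in 1. Of 16 tests of whether a difference by class depended on sex, 0 passed the edgeR threshold, and the lowest adjusted p was 0.475.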

How the results depend on the processing

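Of the fold changes of the 8 genes in single alternatives, DESeq2 and limma included, 343 kept direction and side of the threshold, 47 changed sign (Igfbp2 by Th status passing it as it did) and 3 more came to pass it. Of those that leave out a mouse, 191 kept both, 15 changed sign and 1 came to pass it. Igfbp4 by Neurod6 status passed the threshold from 750000 reads per cell and without mouse 1. The setting with at least 5 cells per class left out mouse 1 alone, so it is that same fit, counted in both tallies. Igfbp2 passed by Aldh1a7 status with positive cells from 1 read, and by Th status without the 6 cells with other markers. The cause of the changes was not tested.

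Genes called by Neurod6 status (6) became 126 with DESeq2, 3 with RLE size factors, 2 without a filter on low counts, 42 with limma on mean CPM, 0 with thinned cells, in Th-rich cells and with the mouse as a replicate block, and 2 with positive cells from 50 reads or at least 5 cells per class, with 0 to 17 over left-out mice. By Aldh1a7 status (51) they became 337 with DESeq2, 106 from 250000 and 10 from 750000 reads per cell, 173 with limma, 28 with the mouse as a replicate block, 13 with positive cells from 1 read or in Th-rich cells, 14 with at least 5 cells per class and 17 in Th-rich Neurod6- cells, with 13 to 86 over left-out mice. By Th status (47) they became 365 with DESeq2, 14 without a filter, 73 from 250000 and 0 from 750000 reads, 21 with thinned cells, 148 with limma, 10 with the replicate block, 0 with Th limits of 100 CPM or 10 reads or at least 5 cells per class and 92 without the 6 cells with other markers, with 3 to 71 over left-out mice. By sex (5) they became 190 with DESeq2, 3 from 750000 reads, 0 on the machine that ran both sexes and 1 in lane 2, with 4 to 5 over left-out mice.

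The following log2 fold changes changed sign, none of them past the threshold before. By Neurod6 status, Igf1r was 0.063 from 750000 reads, 0.068 with positive cells from 1 read and 0.13 with at least 5 cells per class (-0.50 to 0.13 over left-out mice), and Insr was 0.29 from 750000 reads and 0.19 with positive cells from 1 read. By Aldh1a7 status, Igf1r was -0.082 with limma and Igfbp4 -0.47 with positive cells from 50 reads.

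By Th status, Igf1 was 0.047 without a filter, 0.23 from 250000 reads, 2.90 with limma, 2.78 with the replicate block, 3.50 at a Th limit of 100 CPM, 2.41 at 10 reads of Th and 4.44 without the 6 cells (-0.58 to 3.48 over left-out mice). Insr was 0.44 with limma, 0.47 with the replicate block, 0.11 at a Th limit of 100 CPM, 1.52 at 10 reads of Th and 1.90 with at least 5 cells per class (-0.54 to 0.19 over left-out mice). Igfbp2 was 2.28 with limma, 5.07 with the replicate block, 4.92 at a Th limit of 100 CPM, 4.49 at 10 reads of Th and 7.79 without the 6 cells (-0.65 to 5.89 over left-out mice). Igfbp4 was 10.33 from 750000 reads, 1.85 with limma and 5.73 with the replicate block. Igfbp5 was 0.89 from 750000 reads, 0.025 with limma, 0.015 with the replicate block and 0.42 without the 6 cells (-0.51 to 0.15 over left-out mice). Ghsr was -1.77 from 750000 reads, -1.45 with at least 5 cells per class and -0.058 without the 6 cells (-0.91 to 2.43 over left-out mice). Between the sexes, Igf1 was -0.0042 in lane 2. Igf1r was 0.83 from 750000 reads, 0.13 with limma and 0.85 in lane 2 (-0.42 to 0.79 over left-out mice). Igfbp2 was 0.68 on the machine that ran both sexes (-0.97 to 0.035 over left-out mice). Igfbp4 was 2.09 from 750000 reads, 2.01 with limma, 5.48 in lane 2 and 1.29 without the 6 cells (-0.74 to 5.14 over left-out mice). Igfbp5 was 0.21 from 750000 reads and 0.14 in lane 2 (-0.75 to 0.095 over left-out mice). Lepr was 0.26 from 750000 reads and 0.053 in lane 2 (-0.55 to 0.0069 over left-out mice). Ghsr was -0.059 to 2.74 over left-out mice.

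The replicate block changed no call among the 8 genes. Shares moved by more than their SD over mice in 11 of 48 cases, all at detection from 1 or 50 reads. Lepr ran from 94.3% to 7.66%. Detection of low-count genes such as Igfbp2 and Ghsr can depend on depth, and 3 counts bound an unseen gene. With cells thinned to 500000 counts the share went from 14.8 to 12.4% for Igfbp2 and from 19.6 to 16.3% for Ghsr.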
